A study of Mus musculus with 4 samples.

Results

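Foxp1, Satb1 and Btg1 are 3 regulators tied to the resting state of lymphocytes, and their transcripts were followed in cultured mouse B cells separated by a GFP reporter. Probes were taken as belonging to these genes where the number in the probe name was their NCBI Gene ID, and every such probe was used. This gave 5 probes, 4 of them detected on all 4 arrays and 1 detected on 0 arrays, among 3983 genes with a symbol that could be tested. The 3 genes were chosen by their measured values in this comparison, all clearly lower in GFP-positive than in GFP-negative cells, so that difference is described for them here without a test.

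The series holds 4 single-colour Illumina bead arrays. Of these, 2 carried RNA of GFP-positive cells, given the cell type pre-plasmablasts, and 2 carried RNA of GFP-negative cells, given the cell type B cell blasts. The sample titles use B cell blasts for both groups. All cells were of the prdm1-/- genotype on a C57BL/6 background, had been grown in CD40 ligand together with the cytokines IL-4 and IL-5 at 10 U/mL of each, and were sorted by flow cytometry on day 4. Both groups therefore lack Prdm1, the gene of Blimp-1, the factor that drives plasma cell differentiation, and no group with intact Prdm1 was analysed here. The labels name neither the locus that carries GFP nor the age of the mice, and leave unsaid if the replicates are separate cultures or animals. The p-values below thus measure the spread between these arrays only, which may be technical.

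Foxp1 encodes a forkhead transcription factor that keeps naive T cells quiescent in mice and that represses plasma cell genes in human B cells. Satb1 encodes a nuclear protein that anchors chromatin loops and recruits histone-modifying complexes, and it is best known from developing T cells. Btg1 belongs to the BTG and TOB family of antiproliferative proteins, which bring the CCR4-NOT deadenylase to messenger RNAs and so promote their decay. Together with its close relative Btg2, it holds T cells in quiescence in mice.

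In GRCm38, Foxp1 (Gene ID 108655) lies on chromosome 6 at 98925342 to 99522746, Satb1 (Gene ID 20230) on chromosome 17 at 51736187 to 51833290, and Btg1 (Gene ID 12226) on chromosome 10 at 96617001 to 96622813. Where the array probes lie within these genes was not analysed here, so no probe was tied to an exon, a UTR or a start site. The promoter windows of RefSeq (GRCm38.p6, 250 bases before to 50 bases after each annotated start) numbered 3 for Foxp1, 1 for Btg1 and 5 for Satb1. They were searched for the forkhead core TGTTTA on both strands (TAAACA on the reverse). This core was in all 3 Foxp1 windows, in the Btg1 window and in 0 of the 5 Satb1 windows, and in 13.4% of all 32851 windows in the table. The windows that hold it are printed to show where it lies, and the most upstream Satb1 window is printed as one without it. Capitals mark the core. The Btg1 window is at chr10:96616751-96617050 (plus strand). The Foxp1 windows are at chr6:99520944-99521243, chr6:99266466-99266765 and chr6:99028249-99028548, and the Satb1 window is at chr17:51833241-51833540 (all minus strand).
Btg1: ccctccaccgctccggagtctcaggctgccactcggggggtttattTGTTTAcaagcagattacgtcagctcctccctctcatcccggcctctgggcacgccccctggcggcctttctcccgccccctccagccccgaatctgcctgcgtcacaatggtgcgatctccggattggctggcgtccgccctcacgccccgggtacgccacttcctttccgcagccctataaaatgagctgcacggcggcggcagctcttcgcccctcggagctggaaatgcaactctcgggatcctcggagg
Foxp1 start 1: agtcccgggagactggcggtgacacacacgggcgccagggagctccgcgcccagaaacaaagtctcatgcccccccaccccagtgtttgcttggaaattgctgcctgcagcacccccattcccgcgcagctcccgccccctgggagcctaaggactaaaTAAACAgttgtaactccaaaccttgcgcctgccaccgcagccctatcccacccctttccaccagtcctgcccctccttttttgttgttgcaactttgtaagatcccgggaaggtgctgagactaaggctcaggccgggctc
Foxp1 start 2: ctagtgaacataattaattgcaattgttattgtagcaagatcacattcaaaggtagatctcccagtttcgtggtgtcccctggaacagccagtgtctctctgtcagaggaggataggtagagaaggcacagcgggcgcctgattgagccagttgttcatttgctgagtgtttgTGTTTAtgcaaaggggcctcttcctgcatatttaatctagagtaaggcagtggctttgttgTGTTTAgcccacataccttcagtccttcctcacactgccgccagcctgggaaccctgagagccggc
Foxp1 start 3: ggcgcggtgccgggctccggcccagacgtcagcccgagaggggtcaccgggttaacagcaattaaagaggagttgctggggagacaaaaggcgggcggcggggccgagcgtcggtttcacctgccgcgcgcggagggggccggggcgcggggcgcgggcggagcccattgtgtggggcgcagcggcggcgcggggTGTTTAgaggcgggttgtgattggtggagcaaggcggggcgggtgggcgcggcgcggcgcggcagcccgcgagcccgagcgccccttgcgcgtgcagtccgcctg
Satb1 start 1: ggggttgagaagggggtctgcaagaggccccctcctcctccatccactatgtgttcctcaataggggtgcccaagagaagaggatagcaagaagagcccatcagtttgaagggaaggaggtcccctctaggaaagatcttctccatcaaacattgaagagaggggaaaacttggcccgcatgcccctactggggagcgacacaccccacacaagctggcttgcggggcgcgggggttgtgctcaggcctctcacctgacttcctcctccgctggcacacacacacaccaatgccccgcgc

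Counted from the annotated start, the core began at base -204 in the Btg1 window. In Foxp1 it began at base -91 of the first window, at bases -77 and -16 of the second and at base -55 of the third. A half-site of the cyclic AMP response element, TGACGT or its reverse ACGTCA, was in 2 of the 9 windows of the 3 genes, those of Btg1 and of the third Foxp1 start, against 7.51% of all windows. The cell cycle homology region, TTTGAA or its reverse TTCAAA, was in 2 of the 9 windows, the second of Foxp1 and the first of Satb1, against 17.9% of all windows. None of the 3 motifs contains another. A match is a run of letters and not a measured binding site, and binding was not measured in this series.

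Replicates of a group correlated at 0.990 (GFP-positive) and 0.991 (GFP-negative) across detected probes, and arrays of different groups at 0.956 to 0.967. No array stood apart from its group. The eGFP probe read 12.75 and 12.72 in GFP-positive cells, against 9.28 and 9.39 in GFP-negative cells, higher in the cells labelled GFP-positive. It was detected on all 4 arrays, and in GFP-negative cells too it read above the 7.88 to 8.16 of most undetected probes. The source of that signal was not tested. The array's other reporter probe, GFP-S, was not detected on any array and read 7.98 to 8.04. Of 10 markers of B cells, 0 had a probe with a symbol, so the B-cell label was not checked on them. Ebf1, a transcription factor that specifies the B lineage, was detected on all 4 arrays.

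Values are the deposited normalized intensities, on a scale close to log2 on which probes that were not detected lay mostly between 7.88 and 8.16. Foxp1 read 10.36 and 10.43 in GFP-positive cells, against 11.64 and 11.59 in GFP-negative cells. The groups were far apart, with 1.16 units between the closest values, while replicates differed by at most 0.08. The mean was 10.39 ± 0.05 in GFP-positive cells, against 11.62 ± 0.03 in GFP-negative cells (SD, n = 2 each), a difference of -1.22 (SE 0.08), or 2.33-fold lower if the scale is read as log2.

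Satb1 had the largest difference of the 3 genes. It read 9.80 and 10.17 in GFP-positive cells, against 12.24 and 12.13 in GFP-negative cells. The means were 9.98 ± 0.26 in GFP-positive cells, against 12.18 ± 0.08 in GFP-negative cells (SD, n = 2 each), a difference of -2.20 (SE 0.14), or 4.59-fold lower on a log2 reading. Its GFP-positive replicates differed by 0.37 units, more than those of 93.6% of detected probes, yet the closest values of the groups were 1.96 apart. Paired in any way, a GFP-positive array was lower than a GFP-negative array by 1.96 to 2.44 units.

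Btg1 was measured by 2 detected probes. The brighter one, scl012226.1_1-S, read 11.42 and 11.56 in GFP-positive cells, against 13.19 and 13.24 in GFP-negative cells, a difference of -1.73 (SE 0.09), or 3.31-fold lower on a log2 reading. The dimmer one, scl0012226.2_9-S, read 11.35 and 11.45 in GFP-positive cells, against 12.89 and 13.10 in GFP-negative cells, a difference of -1.60 (SE 0.10). Both probes thus put the groups on the same sides, with 1.63 and 1.44 units between the closest values. Their differences were 0.13 apart, close to the median of 0.14 over the 452 genes with exactly 2 detected probes.

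The remaining Btg1 probe, scl0012226.2_300-S, was not detected on any array. It read 7.87 and 7.88 in GFP-positive cells, against 7.96 and 8.02 in GFP-negative cells, inside or just below the band of undetected probes. It gives no measure of Btg1 in either group.

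**Figure D1:**
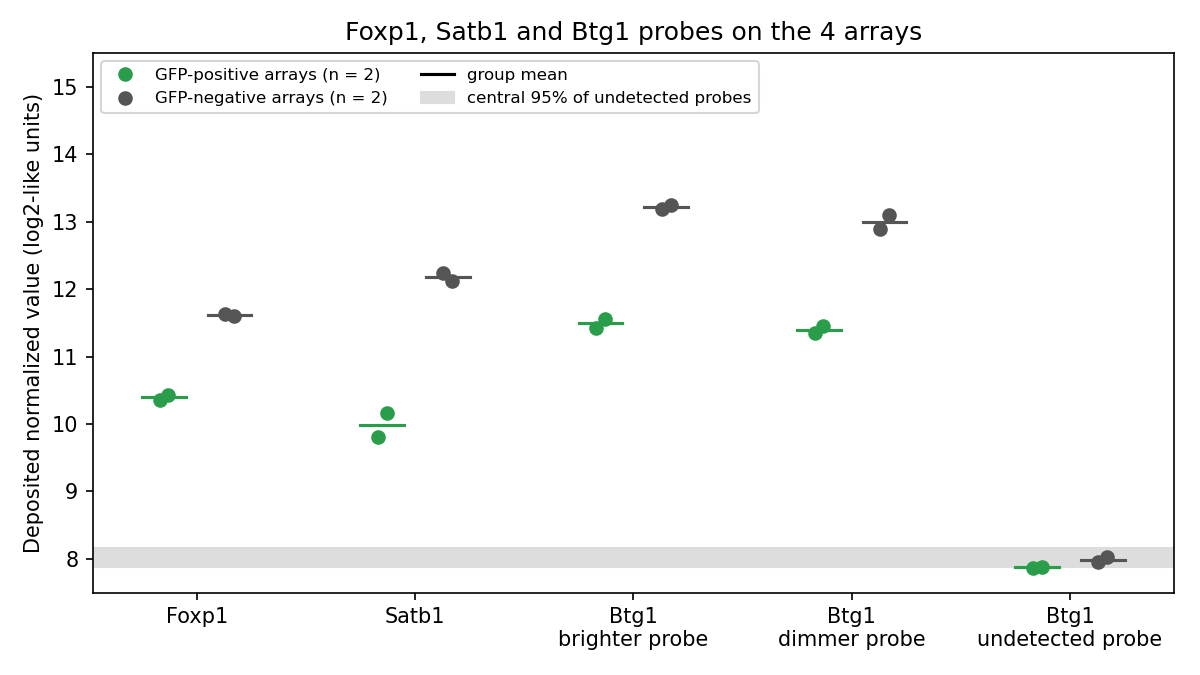
Deposited normalized values (y axis, log2-like units) of the 5 probes of Foxp1, Satb1 and Btg1 (x axis), with a point for each array, a line for each group mean and a grey band for the central 95% of undetected probes. For the 4 detected probes the GFP-positive points lie at least 1.16 units below the GFP-negative ones, and the undetected Btg1 probe lies at the level of the band.

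For all 4 detected probes, both GFP-positive arrays were below both GFP-negative arrays. Of all 15215 features tested, 31.0% had this order, and since the genes were chosen for it, nothing is read from their count. Satb1 ranked 13 from the bottom among the 15215 differences, Btg1 ranked 23 and Foxp1 ranked 86. Among the 3983 genes with a symbol their ranks were 4, 7 and 23. The median difference over all features was -0.02, a value that the normalization of the 4 arrays to a common distribution holds near 0. In bulk RNA, fewer cells that express a gene and less of its RNA per cell cannot be told apart.

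Between replicates, the GFP-positive value was higher in replicate 2 than in replicate 1 for all 4 detected probes, by 0.08 (Foxp1), 0.37 (Satb1), 0.14 and 0.10 (Btg1). The median of this step over all detected probes was 0.02. In GFP-negative cells replicate 2 was lower than replicate 1 for Foxp1 (-0.04) and Satb1 (-0.11) and higher for the Btg1 probes (0.05 and 0.21). Only Satb1 in GFP-positive cells and the dimmer Btg1 probe in GFP-negative cells had replicate differences above 0.15.

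**Figure D2:**
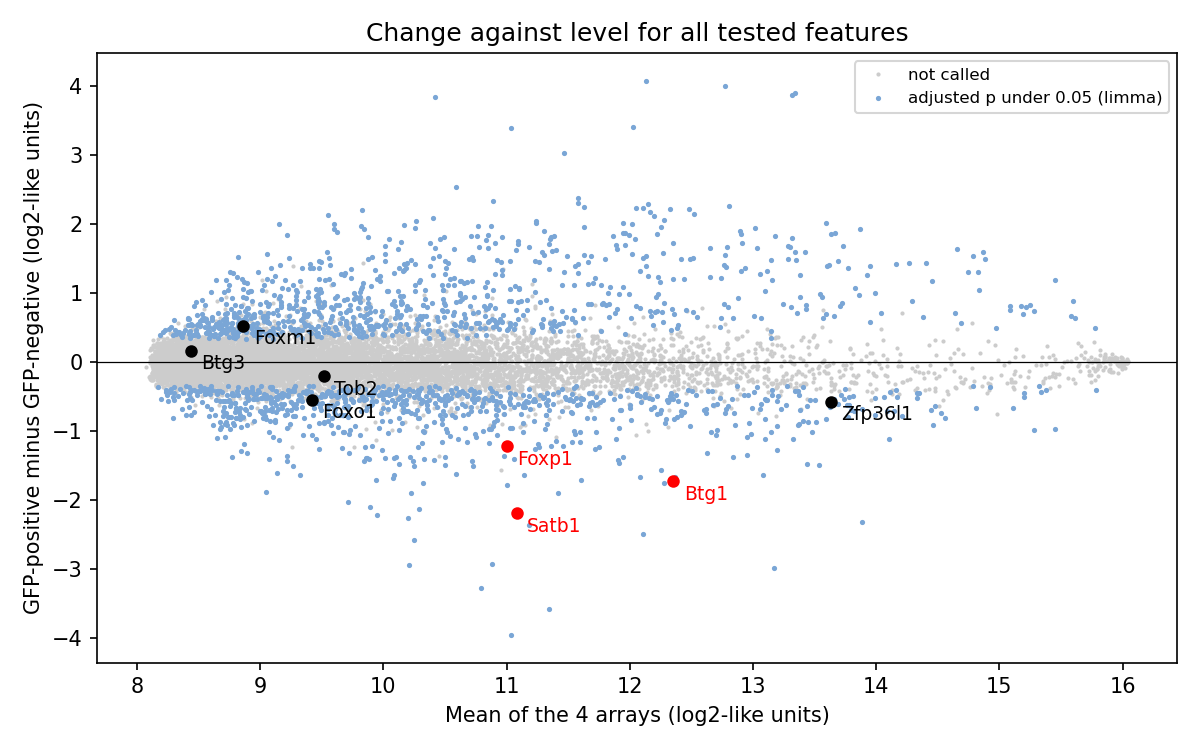
Difference between GFP-positive and GFP-negative cells (y axis, log2-like units) against the mean of the 4 arrays (x axis) for all 15215 tested features, with features called by limma in blue. Foxp1, Satb1 and Btg1 (red) lie at -1.22, -2.20 and -1.73 at intermediate levels, while their relatives Foxo1, Foxm1, Btg3 and Tob2 and the quiescence gene Zfp36l1 (black) lie between -0.57 and 0.53.

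Relatives and partners of the 3 genes were tested with limma on all features, with p-values adjusted by the Benjamini and Hochberg method and a call at an adjusted p under 0.05. This called 5.83% of features higher and 5.29% lower in GFP-positive cells. Of the BTG and TOB family, 2 genes besides Btg1 were tested, and 0 were called. Tob2, an antiproliferative relative, read 9.33 and 9.50 in GFP-positive cells, against 9.73 and 9.51 in GFP-negative cells, a difference of -0.20 (SE 0.11, limma adjusted p = 0.337). Btg3, another relative, read 8.54 and 8.50 in GFP-positive cells, against 8.31 and 8.40 in GFP-negative cells, a difference of 0.16 (SE 0.08, limma adjusted p = 0.282). The 95% intervals of these differences were -0.49 to 0.08 for Tob2 and -0.04 to 0.37 for Btg3. The Btg3 values lie close above the band of undetected probes, where a large decrease could not be seen. Btg2 and Tob1 were not analysed here.

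Of a list of deadenylase and poly(A)-binding genes that also holds Prmt1, 1 of 12 tested was lower, 0 were higher and 11 were not called. The share lower was 8.33%, against 5.29% of all features, and the median difference was -0.06. The list is wider than the deadenylases that BTG proteins contact directly. The one called gene was Pabpn1, which coats new poly(A) tails in the nucleus. It read 12.43 and 12.52 in GFP-positive cells, against 13.17 and 13.28 in GFP-negative cells, a difference of -0.75 (SE 0.09, limma adjusted p = 0.00774) that stayed called when any of the 4 arrays was left out. Among the CCR4-NOT subunits, Cnot6l, a catalytic deadenylase, differed by 0.35 (limma adjusted p = 0.0918), the scaffold partner Cnot2 by -0.28 (limma adjusted p = 0.288) and the ubiquitin ligase Cnot4 by -0.24 (limma adjusted p = 0.172), and Prmt1, a methyltransferase that binds Btg1, by -0.27 (limma adjusted p = 0.146). Cnot7 and Cnot8, the deadenylases that BTG proteins contact directly, read 7.80 to 8.12 and were not detected on enough arrays to be tested.

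In the forkhead family, 4 genes besides Foxp1 were tested. The test called 1 lower and 1 higher, and 2 were not called, where 5.29% of all features were lower and 5.83% higher. Foxo1, a factor that sustains quiescence and homing genes in resting lymphocytes, fell to 9.16 and 9.13 in GFP-positive cells, against 9.61 and 9.77 in GFP-negative cells (difference -0.54, SE 0.09, limma adjusted p = 0.0204). Foxm1, which drives genes of G2 and mitosis, rose to 9.11 and 9.14 in GFP-positive cells, against 8.61 and 8.59 in GFP-negative cells (difference 0.53, SE 0.08, limma adjusted p = 0.0142). Both calls held under every alternative that kept all 4 arrays. Neither was firm when an array was left out, which leaves 1 array in a group. That of Foxm1 was then lost each time, while its difference stayed between 0.51 and 0.54. That of Foxo1 held only without GFP-negative replicate 1, and its difference ran from -0.62 to -0.47. The other Foxm1 probe was not detected on any array.

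Of the 2 uncalled forkhead genes, Foxj3 differed by -0.21 (SE 0.10, limma adjusted p = 0.243) and its dimmer probes by -0.16 and -0.08. Foxk2 differed by 0.11 (SE 0.11, limma adjusted p = 0.607) and its dimmer probe by -0.09. Another 5 forkhead genes, among them Foxp2 and Foxp3, the closest measured relatives of Foxp1, had probes that were not detected on enough arrays to be tested and read 7.83 to 8.28.

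Of the partners of Satb1 and the organisers of chromatin loops, 1 of 15 tested besides Satb1 was lower, 0 were higher and 14 were not called. The share lower was 6.67%, close to the 5.29% of all features, and the median difference was 0.08. The called gene was Chd4, the remodelling ATPase of the NuRD complex, which SATB1 can recruit. It read 10.35 and 10.56 in GFP-positive cells, against 10.97 and 11.01 in GFP-negative cells (difference -0.53, SE 0.10, limma adjusted p = 0.0308). Its dimmer probe differed by -0.26. With the mean of both probes the call was lost (difference -0.40, adjusted p = 0.112), as it was without GFP-positive replicate 1, GFP-negative replicate 1 or GFP-negative replicate 2 (adjusted p of 0.115 at most).

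The cohesin subunits Smc3 (difference 0.29, limma adjusted p = 0.388) and Stag2 (difference 0.35, limma adjusted p = 0.357) were not called, nor were the DNA-bending protein Hmgb1 (difference 0.63, SE 0.37, limma adjusted p = 0.350) and the topoisomerase Top2b (difference 0.42, SE 0.10, limma adjusted p = 0.0517). Hmgb1 varied widely within both groups, with 12.46 and 11.53 in GFP-positive cells, against 11.73 and 11.00 in GFP-negative cells, so its groups overlapped. In both groups replicate 2 was the lower, and a fit with a replicate block is given in the last section. Stag2 passed without GFP-positive replicate 2 (adjusted p = 0.0486), where its difference was 0.65.

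Among 20 tested genes of a list of lymphocyte quiescence that leaves out the 3 genes themselves, 3 were lower, 0 were higher and 17 were not called. Of all features, 5.29% were lower. The list's median difference was 0.08, against -0.02. Bach2, a repressor that holds back plasma cell differentiation, read 9.02 and 9.15 in GFP-positive cells, against 10.67 and 10.92 in GFP-negative cells (difference -1.71, SE 0.11, limma adjusted p = 0.00183). Its value was known when the list was drawn up. Zfp36l1, an RNA-binding protein that promotes messenger RNA decay, read 13.50 and 13.19 in GFP-positive cells, against 13.99 and 13.84 in GFP-negative cells (difference -0.57, SE 0.13, limma adjusted p = 0.0483). Foxo1 is the third gene, as given above.

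The call of Zfp36l1 was fragile. Its dimmer probe differed by -0.31. The call was lost with the mean of both probes (adjusted p = 0.0878), after cyclic loess (adjusted p = 0.0797), without a detection filter (adjusted p = 0.0730) and without GFP-positive replicate 2, GFP-negative replicate 1 or GFP-negative replicate 2 (adjusted p of 0.132 at most). Bach2 stayed called when any of the 4 arrays was left out (adjusted p between 0.00334 and 0.0107).

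The other 17 quiescence genes were not called, and 12 of the 20 had a difference above 0. Klf2, a factor that keeps resting lymphocytes out of cycle, read 13.49 and 13.97 in GFP-positive cells, against 13.46 and 14.09 in GFP-negative cells, with the groups overlapping (difference -0.04, limma adjusted p = 0.948). Cdkn1b, the cell cycle inhibitor p27, differed by 0.08 (limma adjusted p = 0.696), and Pdcd4, a translation inhibitor, by -0.01 (limma adjusted p = 0.954), with an interval of -0.21 to 0.19. Cdkn1b read 8.37 and 8.57 in GFP-positive cells, against 8.35 and 8.42 in GFP-negative cells, close above the band of undetected probes. A large decrease could not be seen there, and its other probe was not detected on any array. Klf2, Cdkn1b and Pdcd4 were chosen after their values were seen.

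Mxi1, a MYC antagonist, differed by 0.53 (limma adjusted p = 0.0862), Klf4, a Krüppel-like repressor of proliferation, by -0.42 (limma adjusted p = 0.161) and its relative Klf7 by 0.31 (limma adjusted p = 0.134). Mxd4, another MYC antagonist, differed by 0.26 (limma adjusted p = 0.321) and Klf6 by 0.22 (limma adjusted p = 0.662). None of these 5 was called. The Klf4 probe was detected on 3 arrays. It read 8.25 and 8.17 in GFP-positive cells, close to the band of undetected probes, against 8.85 and 8.41 in GFP-negative cells. The other Klf4 probes were not detected on any array. Klf4 passed without GFP-negative replicate 2 (adjusted p = 0.0434), and Mxi1 passed with a variance trend and robust fit (adjusted p = 0.0485).

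**Figure D3:**
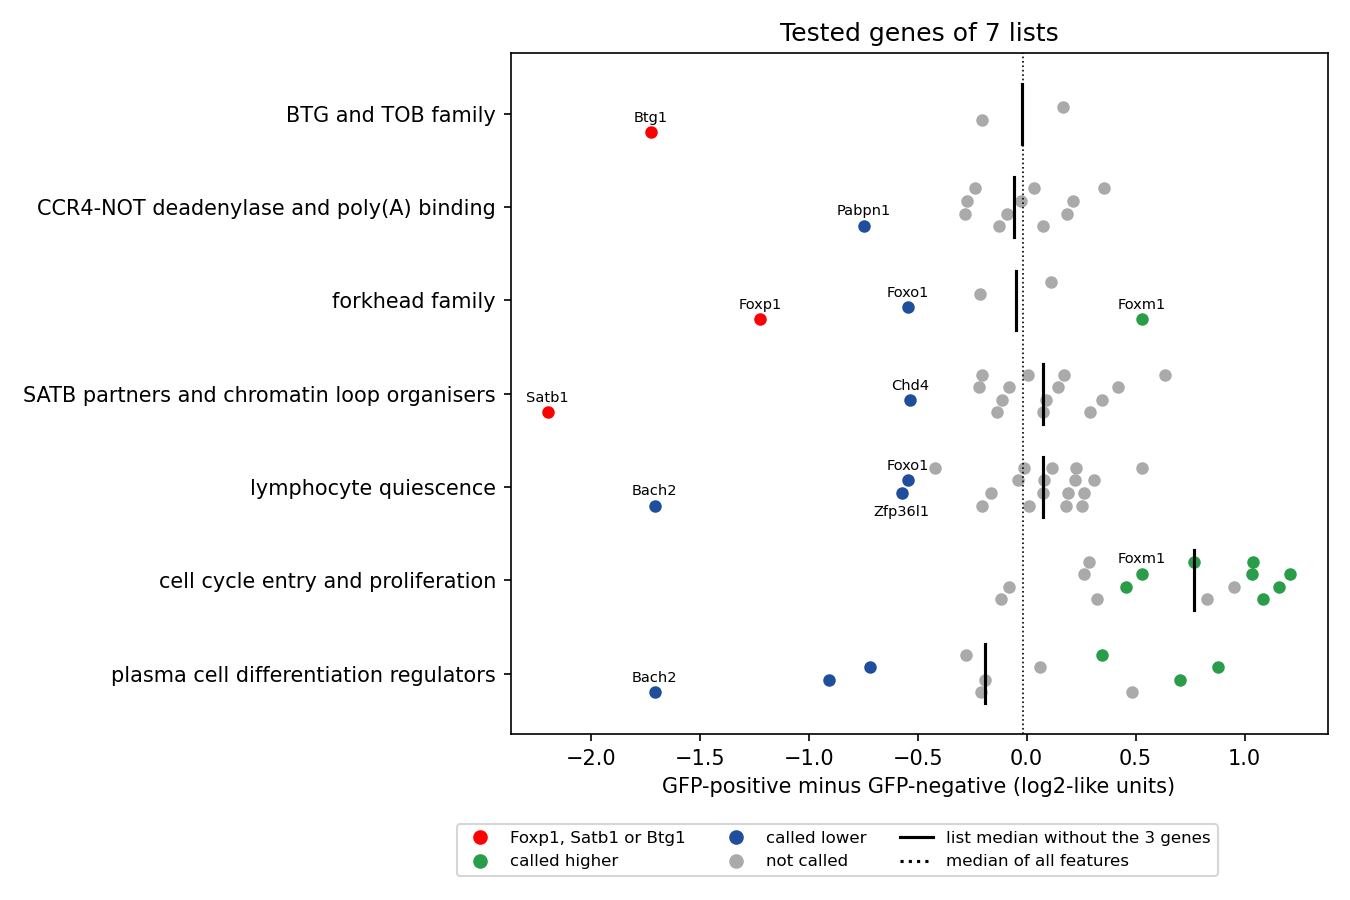
Difference between GFP-positive and GFP-negative cells (x axis, log2-like units) of each tested gene in 7 lists (y axis), coloured by its limma call, with a bar for each list's median without Foxp1, Satb1 and Btg1 and a dotted line for the median of all features at -0.02. The 3 genes (red) lie to the left of all other tested genes of their own families, and the median of the cell cycle list is the one that lies farthest from the dotted line, at 0.77.

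Genes of cell cycle entry and proliferation, a list that also holds Foxm1, lay mostly on the other side. Of 15 tested, 8 were higher, 0 were lower and 7 were not called, a share higher of 53.3% against 5.83% of all features. The median difference was 0.77, with 13 differences above 0 and 2 below. The list was drawn up with earlier results of these data known, so its counts are a description. Myc and Ccnd1, genes of cell cycle entry chosen after their values were seen, were not detected on any array. The mitotic kinase Plk1 rose to 11.11 and 11.18 in GFP-positive cells, against 9.99 and 9.88 in GFP-negative cells (difference 1.21, SE 0.08, limma adjusted p = 0.00190). Ccnb1, the mitotic cyclin, Nusap1 of the spindle, Cdc20, which activates the anaphase ligase, and Rrm2 of nucleotide synthesis rose by 1.16, 1.08, 1.04 and 1.03 (limma adjusted p from 0.00231 to 0.00477), and all 5 genes stayed called when any of the 4 arrays was left out. A resting B cell population was not analysed here.

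Regulators of plasma cell differentiation, a list that also holds Bach2, gave calls in both directions. Of 11 tested, 3 were higher, 3 lower and 5 not called, where 5.83% of all features were higher and 5.29% lower. This list, too, was drawn up with earlier results of these data known, so its counts are a description. Xbp1, which builds the secretory apparatus, rose to 14.61 and 14.84 in GFP-positive cells, against 13.71 and 13.98 in GFP-negative cells (difference 0.88, SE 0.13, limma adjusted p = 0.0161). Ell2, an elongation factor for secreted immunoglobulin, rose by 0.70 (SE 0.15, limma adjusted p = 0.0443). The B-lineage factors Spib and Ebf1 fell by 0.91 (SE 0.13, limma adjusted p = 0.0149) and 0.72 (SE 0.08, limma adjusted p = 0.00562). Ebf1 read 10.42 and 10.43 in GFP-positive cells, against 11.13 and 11.15 in GFP-negative cells, the tightest replicates of these factors. Xbp1 did not pass when GFP-positive replicate 2 was left out (adjusted p = 0.0601), nor did Spib without either GFP-positive array (adjusted p of 0.0666 at most), and the call of Ell2 held only without GFP-positive replicate 2 (adjusted p = 0.0184).

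Markers of other cell types were read beside these values. Only probes given a symbol through a Gene ID in their name are counted here, and probes under other names were not searched. Of 14 T-cell markers, 4 had such a probe, among them Cd3e and Cd8b1 of the T-cell surface, and 0 were detected on any array. Their summed values were 32.21 and 32.23 in GFP-positive cells, against 32.29 and 32.21 in GFP-negative cells, the level of undetected probes. Markers of natural killer cells (1 of 6 with a probe) and granulocytes (3 of 6) were likewise not detected. Of the macrophage and dendritic cell markers, 6 of 11 had a probe and 2 were detected. Cd68 differed by 0.33 (limma adjusted p = 0.128). Itgam, detected on 2 arrays, read 8.30 and 8.28 in GFP-positive cells, against 7.96 and 7.98 in GFP-negative cells, where it lay in the band of undetected probes. The summed values of the list were 57.64 and 57.67 in GFP-positive cells, against 56.81 and 56.73 in GFP-negative cells. Lyz2, Csf1r, C1qa and C1qb were not tested for lack of detection. Of the erythroid markers, Hbb-b1 was detected and differed by -0.32 (limma adjusted p = 0.439), with list sums of 17.09 and 16.87 in GFP-positive cells, against 17.44 and 16.84 in GFP-negative cells. Of 8 plasma cell markers, 4 were tested and 3 were called higher, Xbp1, Ell2 and Jchain, which joins immunoglobulin polymers. Of all features, 5.83% were higher, and Xbp1 and Ell2 were already counted among the regulators above. The other tested marker, Tnfrsf13b, differed by -0.02 (limma adjusted p = 0.952). Jchain was detected on 2 arrays and read 9.84 and 9.34 in GFP-positive cells, against 8.16 and 7.95 in GFP-negative cells, the level of undetected probes, so it entered the test through the group where it is high. Sdc1, the surface marker CD138, was not detected. The sums of that list were 59.21 and 58.18 in GFP-positive cells, against 55.53 and 55.49 in GFP-negative cells. The part of T-cell, macrophage, erythroid and plasma cell transcripts in the values of Foxp1, Satb1 and Btg1 was not tested.

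The likeness of other genes was measured as the Euclidean distance between profiles over the 4 arrays after each gene's own mean was subtracted, among 3893 other genes with a symbol. With 4 arrays in 2 groups, this measure rests largely on the comparison that chose the 3 genes, and it is a description. Foxp1 was nearest to Ublcp1, a phosphatase of the proteasome (distance 0.08), Zfp318, which controls the choice between IgM and IgD transcripts (0.09), Arhgef3, a guanine nucleotide exchange factor (0.09), Oas1a, an antiviral synthetase (0.12), and the kinase Lrrk2 (0.13). Their differences between the groups ran from -1.13 to -1.32. Zfp318 read 9.21 and 9.39 in GFP-positive cells, against 10.52 and 10.52 in GFP-negative cells.

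Satb1 had no neighbour as near. The closest were Crhbp, a binding protein of corticotropin-releasing hormone (distance 0.30), and Sorl1, a sorting receptor (0.33), followed by Btg1 itself (0.51), Bach2 (0.58) and the membrane protein Smim14 (0.61). Sorl1 shared the step between GFP-positive replicates, with 8.57 and 9.11 in GFP-positive cells, against 10.80 and 11.10 in GFP-negative cells. Btg1 was nearest to Smim14 (0.12) and Bach2 (0.14), then to the potassium channel Kcnk13 (0.22), Sypl of membrane vesicles (0.31) and the splicing kinase Srpk3 (0.31). Of the 3 genes, Foxp1 and Btg1 were 0.51 apart, Satb1 and Btg1 0.51, and Foxp1 and Satb1 1.00.

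**Figure D4:**
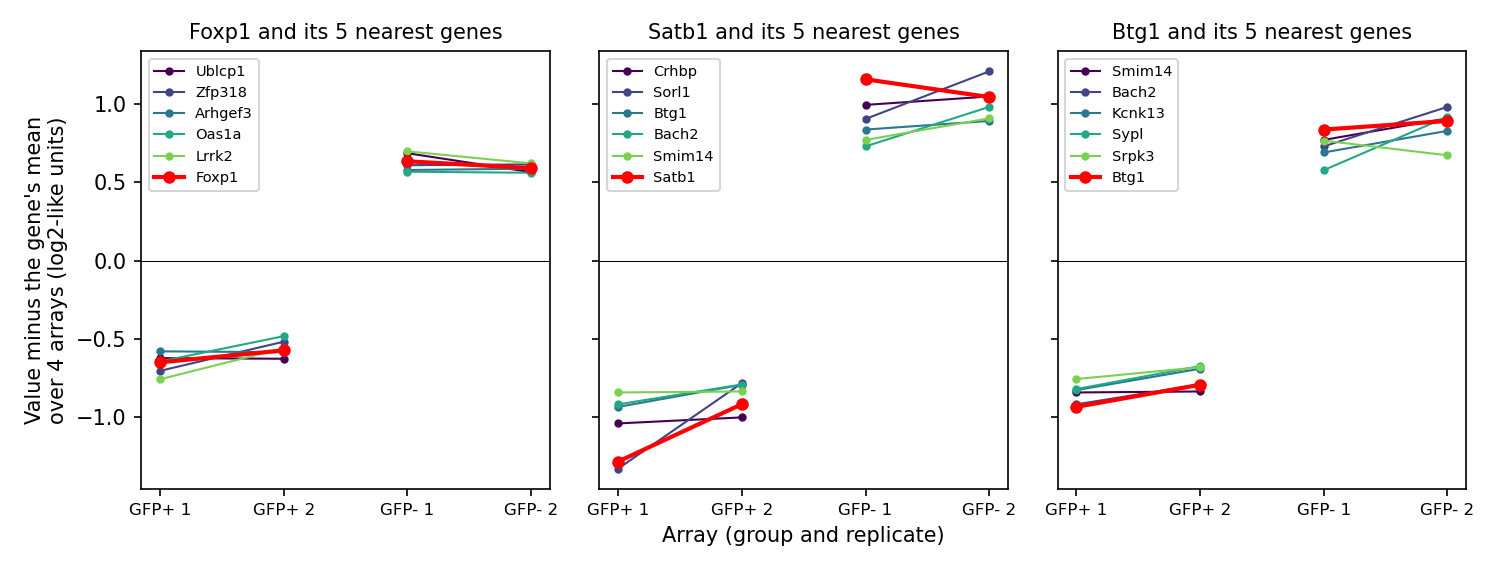
Values on the 4 arrays after subtracting each gene's own mean (y axis, log2-like units) for Foxp1, Satb1 and Btg1 (red, 1 panel each) and the 5 genes nearest to each. The neighbours of Foxp1 follow it within a distance of 0.13, while those of Satb1 lie 0.30 to 0.61 away.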

How the data were processed

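RNA of 2 GFP-positive and 2 GFP-negative samples was hybridised to Illumina arrays. The deposited normalized values, which are log2-like, were made with lumi per the submitters' processing notes, whereas the version, background step and transformation are not given in the sources consulted. They were used as log2 without further change. Sorted values of the 4 columns differed by at most 0.00267, and the scale ran from 7.71 to 16.07. The deposited detection p-values, per the file headers, served to count arrays with a p-value under 0.05 per probe and nothing else, because 4 signal columns beside them match no sample label and were not used. Probes detected on 2 or more arrays numbered 15787 of 45992.

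Probe names with scl, 1 or 2 zeros and a number were read as NCBI Gene IDs and named from RefSeq (GRCm38.p6), which gave symbols to 9807 probes of 8109 genes. Each gene was represented by its brightest detected probe. GFP-positive minus GFP-negative was fitted over all 15215 features with lmFit and eBayes of limma 3.58.1 (R 4.3.3), with 2 residual and 3.40 prior degrees of freedom, two-sided, and adjusted by Benjamini and Hochberg. In data simulated for this comparison (15215 features), 38 of 50 changes of 1 unit and 3 of 50 of 0.5 units were recovered. The simulation held 50 changed features of each size and independent noise. The data gave 1692 calls, which loosens the adjusted cutoff, so these shares do not measure what was missed here. Small differences can still be missed. The number of arrays limits the precision. Members, lists and tests were chosen with earlier results of these data known. The naming rule took every detected probe of the 3 genes, every tested BTG, TOB and forkhead gene, up to 10 quiescence genes and up to 5 of each other list (called ones first, then by size of change) and 5 neighbours of each member, 48 genes in all, of which some are not reported here by name. Genes named outside it, markers aside, are said to be chosen after their values were seen. Alternatives were a replicate block, other detection filters, cyclic loess, a variance trend, the mean of a gene's probes and leaving out each array.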

Additional observations from a re-analysis of the deposited data

How the results depend on the processing

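The differences of Foxp1, Satb1 and Btg1 kept their sign under every alternative run. After cyclic loess they were -1.17 for Foxp1 and -1.65 for Btg1, against -1.22 and -1.73 as deposited. Leaving out each array in turn gave -1.26 to -1.18 for Foxp1, -2.38 to -2.01 for Satb1 and -1.80 to -1.65 for Btg1. Counts of calls depended more on the setting. The number of called features was 1692 and ran from 844 to 1228 without 1 array. Without 1 array, the calls were 1 to 3 of the Satb1 partners (Satb1 included), 1 to 2 forkhead genes (Foxp1 included), 1 to 2 quiescence genes and 3 to 4 plasma cell regulators. When a gene's probes were averaged, 1 Satb1 partner was called, Satb1 itself. A replicate block on the shared numbers called 3986 features, with 3 deadenylase genes, 6 Satb1 partners, 13 cell cycle genes and 6 quiescence genes. Named genes that passed under the block and not without it were Hmgb1 (adjusted p = 5.75e-05), Mxi1 (2.96e-04), Top2b (0.00244), Klf4 (0.00479), Cnot6l (0.00881), Klf7 (0.0215), Stag2 (0.0256), Smc3 (0.0310) and Cnot2 (0.0367). Same-numbered arrays deviated together (r = 0.43 across 15787 probes), but the labels state no pairing, so this is a hint from the data and not the design. For the 34 genes named from lists, 300 of 339 values kept sign and call, 24 lost the call, 12 gained it and 3 changed sign, all of them without a call: Foxk2 without GFP-positive replicate 2 (-0.018, range without 1 array -0.018 to 0.24) and Klf6 without GFP-positive replicate 1 (-0.053) or GFP-negative replicate 2 (-0.073, range -0.073 to 0.52). Dim probes near the band of undetected values can show little change.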
